A study of Homo sapiens with 10 samples.

Results

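Interferon-stimulated genes are the genes that cells switch on when they sense an interferon. The 40 analysed here were taken by gene symbol from the table of all genes, which lists 46427, and they were followed through 10 poly(A) RNA libraries of the established human lung cancer cell lines H460 and A549. H460 contributed 3 libraries of parental cells grown in 2D, 1 of cisplatin-resistant (CR) cells, 2 of paclitaxel-resistant (PR) cells, 1 of doxorubicin-resistant (DR) cells and 1 of tumor spheroid (TS) cells. A549 had 1 library of 2D and 1 of TS cells. The H460 cells called resistant were those left after 4 µM cisplatin, 5 nM paclitaxel or 0.5 µM doxorubicin had been given for 3 days and followed by 3 days in fresh medium, with collection on day 8, so they are cells that outlived 1 short exposure and not lines selected over a long time. TS cells, which the sample labels name CTC and sphere culture, grew on a non-adhesive coating in medium with B27 and growth factors, whereas 2D cells grew attached in serum, so the TS comparison changed both the form of growth and the medium. No interferon treatment is named in the labels or the methods. Nothing in the labels says that replicates were separate cultures, so p-values measure only the spread between these libraries, which may be technical. The 4 drug-resistant libraries and the H460 TS library were all compared with the same parental libraries.

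Type I and type III interferons bind receptors on the cell surface and activate the kinases JAK1 and TYK2, which phosphorylate STAT proteins. The complex ISGF3, of which STAT2 and IRF9 are parts, enters the nucleus and binds the interferon-stimulated response element (ISRE) near the start of its target genes, whereas interferon-gamma acts mainly through a different element, the gamma-activated site (GAS). The products block viruses at many steps and also feed back on the pathway. In tumour cells a subset of these genes is known to be active without an added interferon, and DNA damage and double-stranded RNA are known triggers of the pathway. In RNA of whole cultures, fewer expressing cells and less RNA per expressing cell cannot be told apart.

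The ISRE core was searched as GAAA, any 2 bases and GAAA, or as TTTC, any 2 bases and TTTC for the other strand, in the 250 bases before the transcript start that the RefSeq promoter table (GRCh38.p14) gives for each gene, and matches that overlap each other were counted separately. A window was given for 33 of the 40 genes. In 29 of these the transcript start was the outer start of the gene, and in 4 (DDX60, IFI27, ISG20 and XAF1) it lay inside the gene, 7227, 4842, 3384 and 599 bases from the outer start. The core stood in 20 of the 33 windows (60.6%), against 3.07% of 27305 promoters of all genes. The GAS letters TTCNNNGAA, which read the same on both strands, stood in 10 of the 33 windows (30.3%) and in 6.77% of all. IRF7, IFIT2, OAS2, OASL, MX2, USP18 and IFITM2 had no entry. Such a match is a description of letters and not of a bound site. The stretches below are from the genes with a match that had the largest absolute log2 fold change in any comparison described further on. BST2 and IFI27 among them did not pass the test in any comparison. OASL, IRF7 and RSAD2 changed more than some of these genes but had no window or no match. Capitals mark the matches, and each stretch is written 5′ to 3′ in the direction of the gene.
IFI44L (chr1:78620264-78620404, plus strand): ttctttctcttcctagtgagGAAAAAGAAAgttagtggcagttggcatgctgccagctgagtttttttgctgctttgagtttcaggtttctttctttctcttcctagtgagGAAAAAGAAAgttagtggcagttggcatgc
EPSTI1 (chr13:42992262-42992311, minus strand): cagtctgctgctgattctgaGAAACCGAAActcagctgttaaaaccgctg
IFI44 (chr1:78649751-78649788, plus strand): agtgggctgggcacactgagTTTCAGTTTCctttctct
BST2 (chr19:17405725-17405780, minus strand): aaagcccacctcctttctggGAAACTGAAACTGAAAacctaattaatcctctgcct
IFITM3 (chr11:320866-320932, minus strand): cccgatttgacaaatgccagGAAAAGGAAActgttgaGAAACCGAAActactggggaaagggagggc
IFI27 (chr14:94110608-94110670, plus strand): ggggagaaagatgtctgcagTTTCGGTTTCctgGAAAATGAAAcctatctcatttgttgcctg
The 3 further stretches were chosen after the values of these genes had been seen, because OAS3 fell where IFIT3 and ISG15 rose in drug-resistant cells.
OAS3 (chr12:112938311-112938473, plus strand): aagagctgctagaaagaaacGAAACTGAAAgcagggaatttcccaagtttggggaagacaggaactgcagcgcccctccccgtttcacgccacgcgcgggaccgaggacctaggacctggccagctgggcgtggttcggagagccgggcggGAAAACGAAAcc
IFIT3 (chr10:89327821-89327904, plus strand): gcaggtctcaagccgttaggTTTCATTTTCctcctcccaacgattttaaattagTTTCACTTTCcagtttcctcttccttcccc
ISG15 (chr1:1013364-1013419, plus strand): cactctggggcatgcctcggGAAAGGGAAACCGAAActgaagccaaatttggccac
In OAS3 the match nearest to the start ended 2 bases before it, in IFI44 8 bases, in IFITM3 25 bases and in ISG15 97 bases.

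The genes are spread over 16 chromosomes, but 23 of them lie in 9 clusters in which neighbours are at most 200000 bases apart. IFIT2, IFIT3, IFIT1 and IFIT5 share 1 cluster on chromosome 10 (89302046 to 89420997), inside which the gene LIPA overlaps all 4. OAS1, OAS3 and OAS2 lie side by side on chromosome 12 (112906962 to 113011723), and IFITM2, IFITM1 and IFITM3 on chromosome 11 (307816 to 320860). CMPK2 overlaps RSAD2 and PARP9 overlaps DTX3L. Whether the counting used the strand is not given, so reads in these overlaps, and reads shared by the near-identical IFITM genes or by USP18 and its copies, are uncertain.

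Levels are given as FPKM, in which the authors scaled the reads to transcript length and library size, so that levels can be compared between genes. Between 59499787 and 89541774 reads were counted on genes per library, with a median of 71656787. At this depth the number of libraries limits the precision of the more abundant genes. In parental H460 cells between 23 and 26 of the 40 genes had an FPKM of at least 1, and 9 had at least 10. IFITM3, a membrane protein that blocks viral entry, LGALS3BP, a secreted glycoprotein that binds galectin-3, and OAS1, a sensor of double-stranded RNA, were the most abundant in every parental library. Their ranges were 190 to 302, 150 to 187 and 76.1 to 138. The ranges of IFITM3 and LGALS3BP lay next to each other without overlap, and OAS1 lay below both. The summed FPKM of the 40 genes was 557, 684 and 771 in the parental libraries, 892 in CR, 658 and 770 in PR, 977 in DR and 760 in TS cells of H460. In A549 it was 175 in 2D and 766 in TS cells, so the sum was lowest in A549 2D cells. In the H460 libraries most of the sum came from IFITM3, LGALS3BP and OAS1. These genes were at 16.3, 33.3 and 15.8 in A549 2D cells, where 20 of the 40 genes had an FPKM of at least 1.

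**Figure D1:**
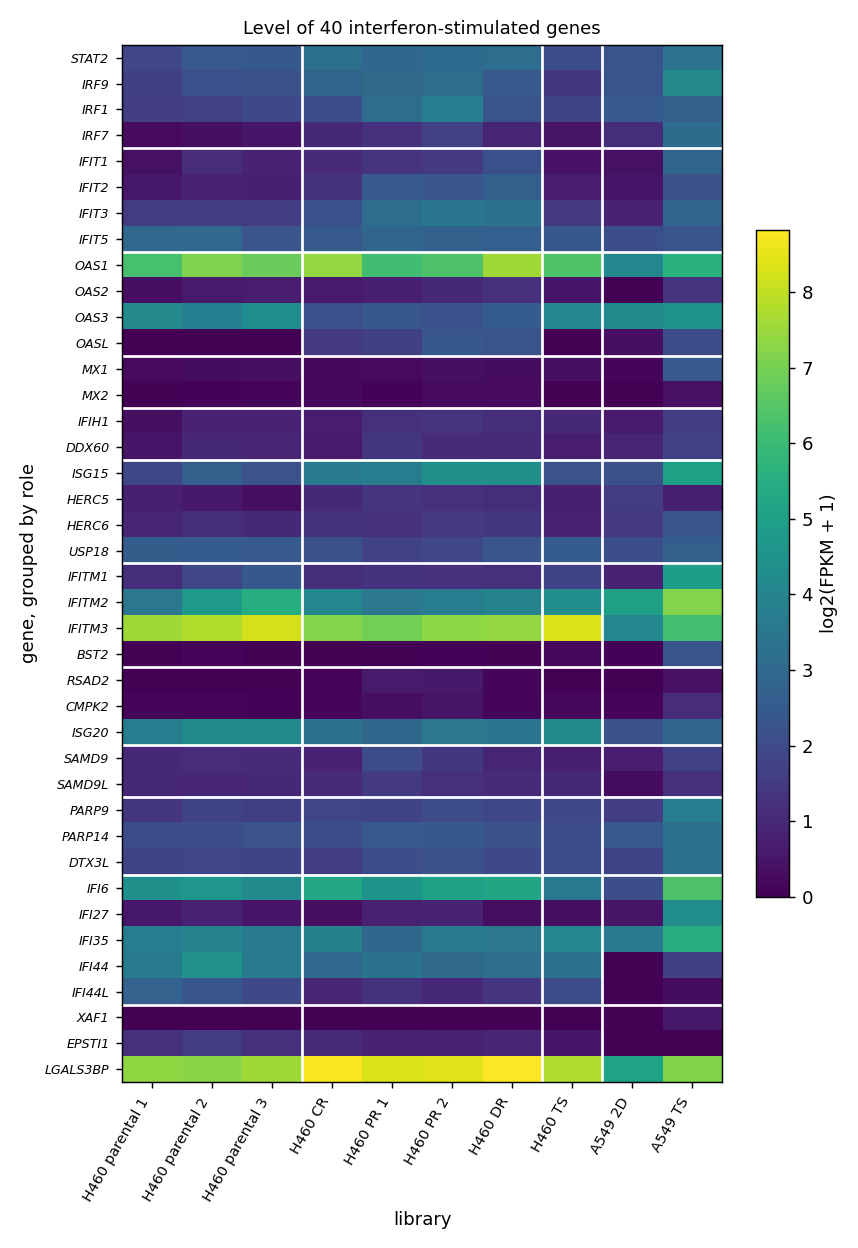
Level of each of the 40 genes (rows, grouped by role, white lines between roles) in each of the 10 libraries (columns), as log2(FPKM + 1) on the color scale. OASL is dark in the 3 parental libraries and lighter in the 4 drug-resistant ones, OAS3 shows the opposite, and the A549 TS column is lighter than the A549 2D column in most rows.

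The identity of the cells was checked with marker genes. KRT8 and KRT18, keratins of epithelial cells, had an FPKM of at least 190 in every library. CDH1, which encodes E-cadherin, was at most 0.0266 in the H460 libraries and at 9.29 and 11.9 in the A549 libraries, and EPCAM was at most 0.114 in H460 and at 0.923 and 1.04 in A549. Leukocyte and endothelial markers other than CD14 had an FPKM under 1 in every library, and PTPRC, which defines leukocytes, was at most 0.157. CD14 was at 2.78, 8.34 and 9.49 in parental, 14.6 in CR, 11.5 and 17.1 in PR and 11.8 in DR cells, so every drug-resistant library was higher, but it did not pass the edgeR test (adjusted p = 0.0716). ITGAM had 0 reads in each parental library and 14 in CR, 82 and 125 in PR and 39 in DR cells, and it passed (adjusted p = 0.00294). The endothelial marker VWF also passed (adjusted p = 0.0230), with 3 to 9 reads in parental and 13 to 70 in drug-resistant cells, while the summed FPKM of the 3 endothelial markers (PECAM1, CDH5 and VWF) was at most 0.182 in any library. The summed FPKM of 4 fibroblast markers (COL1A1, DCN, LUM and PDGFRB) ranged from 1.29 to 6.00 in parental and from 6.03 to 19.5 in drug-resistant cells, and was 28.3 in H460 TS cells, where LUM alone was at 26.6 against 0.237 to 2.76 in parental cells. COL1A1 rose in drug-resistant cells (log2 fold change 4.35, standard error 0.75, adjusted p = 0.00208), from 0.193, 0.0848 and 0.188 in parental to 0.783 in CR, 6.51 and 6.26 in PR and 1.41 in DR cells. The part of these differences in the results that follow was not tested.

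The first comparison asked how interferon-stimulated genes differ between drug-resistant and parental H460 cells. Genes of the signalling complex and several antiviral effectors were higher. OAS3, IFI44L and others were lower, in a share near that of all genes. Of the 40 genes, 38 had enough reads to be tested (BST2 and XAF1 did not), and 18 of the 38 passed an adjusted p of 0.05, 11 higher and 7 lower in the 4 drug-resistant libraries. Among all 18398 genes tested, 33.8% passed, 18.5% higher and 15.3% lower. The share of these 38 genes was therefore above that of all genes in the higher direction and near it in the lower one. Their median log2 fold change was 0.42, against 0.06 over all genes. Adjusted p-values are from edgeR's quasi-likelihood test of the counts with Benjamini-Hochberg adjustment over all genes tested. With upper-quartile scaling, which moved the median of all genes to 0.23, 14 of these genes were higher and 4 were lower, and the share of higher genes among all genes called went from 54.6% to 67.4%. The names of the libraries come in 2 forms, with and without a hyphen, and were examined as a possible batch. Parental and drug-resistant libraries occur in both forms, but CR and DR cells only in the form with a hyphen. All 18 differences had the same sign within each form. This is no test of a batch, since the 18 genes were called on these same libraries. With the form as a covariate 17 of the 18 were called, without IFITM2.

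**Figure D2:**
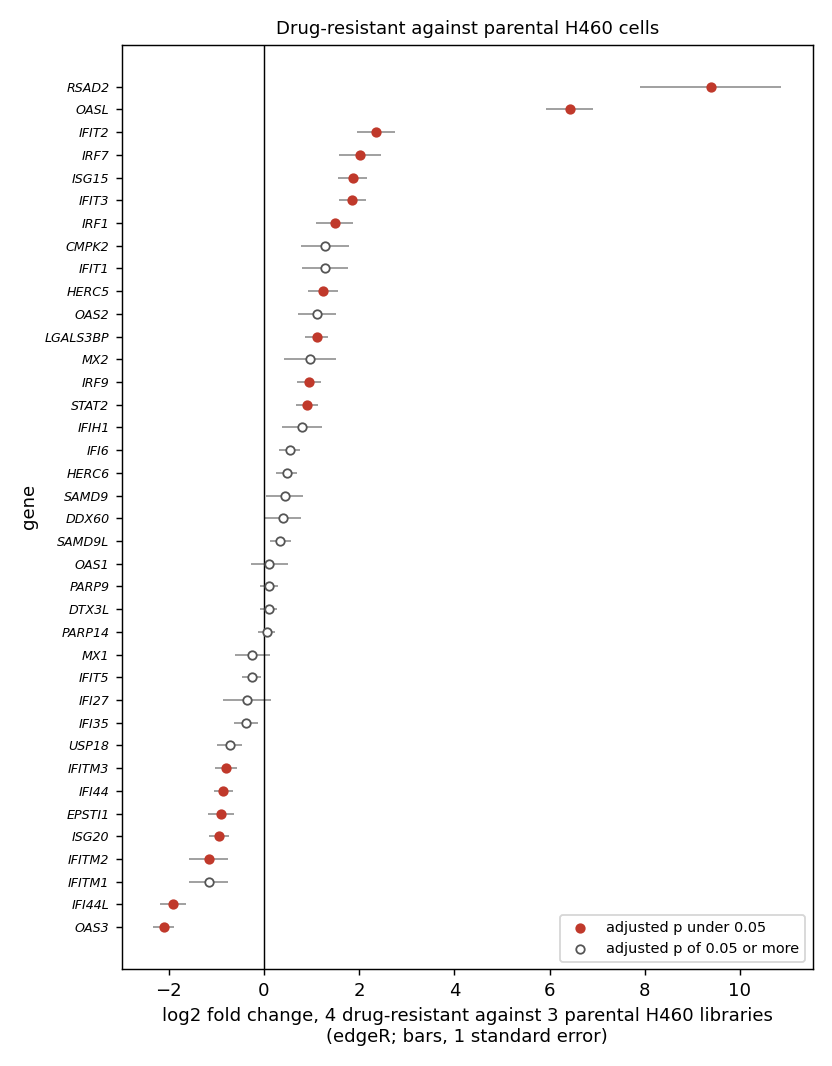
Log2 fold change of the 38 tested genes (rows) in 4 drug-resistant against 3 parental H460 libraries, with bars of 1 standard error; filled points had an adjusted p under 0.05. Of the filled points, 11 lie to the right of 0 and 7 to the left, and the position of RSAD2 depends on the prior count of the fit because it had no read in parental cells.

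All 4 transcription factors of the group rose over the 4 drug-resistant libraries together. In the fit of CR and DR without PR, IRF9, IRF1 and IRF7 were not called, and in PR alone STAT2 was not. STAT2 and IRF9 are parts of ISGF3. The FPKM of STAT2 was 2.64, 4.45 and 4.33 in parental, 8.31 in CR, 6.70 and 7.39 in PR and 7.87 in DR cells. Every drug-resistant library lay above every parental one, and the means were 3.81 ± 1.01 (SD, n = 3) and 7.57 ± 0.688 (SD, n = 4), which corresponds to 0.90 on the log2 scale in the fit (standard error 0.23, adjusted p = 0.0136). IRF9 was at 2.22, 3.47 and 3.60 in parental, 6.12 in CR, 7.22 and 8.17 in PR and 4.57 in DR cells, again without overlap (log2 fold change 0.94, standard error 0.25, adjusted p = 0.0167). Parental replicate 1 was the lowest library for both genes.

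IRF1 and IRF7 are regulators that the pathway itself induces, and IRF7 drives production of interferon-alpha. The FPKM of IRF1 was 2.00, 2.23 and 2.89 in parental, 3.33 in CR, 8.11 and 12.8 in PR and 3.87 in DR cells, so that the PR libraries stood well above the others. Its log2 fold change was 1.48 (standard error 0.38, adjusted p = 0.0143), and the adjusted p was 0.0616 without parental replicate 1 and 0.0617 without parental replicate 2. IRF7 was at 0.183, 0.278 and 0.455 in parental, 1.02 in CR, 1.38 and 2.37 in PR and 0.874 in DR cells, and its log2 fold change was 2.03 (standard error 0.44, adjusted p = 0.00656). IRF9 also lost its call without parental replicate 1 (adjusted p = 0.0584) or 2 (adjusted p = 0.0501).

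IFIT proteins bind foreign RNA and hinder its translation, and 2 of the 4 genes rose. IFIT2 was at 0.477, 0.852 and 0.726 in parental, 1.47 in CR, 4.48 and 3.98 in PR and 5.34 in DR cells. Its log2 fold change was 2.35 (standard error 0.40, adjusted p = 0.00197). IFIT3, with its 2 ISRE cores, was at 1.92, 2.01 and 1.87 in parental, 3.70 in CR, 7.95 and 10.0 in PR and 8.90 in DR cells (log2 fold change 1.86, standard error 0.29, adjusted p = 0.00124). For both genes the CR library was the lowest of the drug-resistant ones and still above all parental libraries. IFIT1 was at 0.304, 1.15 and 0.807 in parental, 1.11 in CR, 1.55 and 1.75 in PR and 3.44 in DR cells, where the CR value fell within the parental range and the test was not passed (log2 fold change 1.28, standard error 0.48, adjusted p = 0.0608). IFIT5, at the other end of the cluster, ranged from 4.06 to 7.07 in parental and from 4.70 to 6.32 in drug-resistant cells.

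OAS enzymes make the messenger 2-5A, which activates RNase L, and members of the family moved in opposite directions. OASL, a member without that enzyme activity, was near 0 in parental cells at 0.0134, 0.0430 and 0.0364, and was at 1.82 in CR, 2.22 and 4.32 in PR and 3.88 in DR cells. Its means were 0.0309 ± 0.0155 (SD, n = 3) and 3.06 ± 1.22 (SD, n = 4), and its log2 fold change was 6.43 (standard error 0.50, adjusted p = 9.42e-05), the largest among members with reads in every parental library. OAS3, the enzyme with the largest protein of the family, fell. It was at 16.6, 12.9 and 18.7 in parental, 3.41 in CR, 4.32 and 3.65 in PR and 4.90 in DR cells. The highest drug-resistant value was below the lowest parental one, and the log2 fold change was -2.10 with a standard error of 0.22 (adjusted p = 0.000239).

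The neighbours of OAS3 did not pass the test. OAS1 was at 76.1, 138 and 112 in parental, 165 in CR, 68.9 and 80.4 in PR and 188 in DR cells, so that CR and DR lay above the parental range while PR lay at its lower end. Its log2 fold change was 0.12 (standard error 0.38, adjusted p = 0.837). OAS2 was at 0.271, 0.562 and 0.599 in parental, 0.544 in CR, 0.669 and 1.01 in PR and 1.32 in DR cells (log2 fold change 1.11, standard error 0.40, adjusted p = 0.0519).

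ISG15 is a ubiquitin-like protein, HERC5 attaches it to other proteins and USP18 removes it and also dampens the type I receptor. ISG15 was at 2.77, 5.42 and 3.77 in parental, 11.0 in CR, 12.4 and 20.0 in PR and 19.4 in DR cells. The groups were well apart, with means of 3.99 ± 1.34 (SD, n = 3) and 15.7 ± 4.67 (SD, n = 4) and the log2 fold change was 1.86 (standard error 0.30, adjusted p = 0.00157). HERC5 was at 0.665, 0.522 and 0.270 in parental, 0.982 in CR, 1.54 and 1.30 in PR and 1.21 in DR cells (log2 fold change 1.24, standard error 0.31, adjusted p = 0.0124). USP18 had values on the other side, at 5.12, 4.97 and 4.65 in parental, 3.61 in CR, 2.26 and 2.66 in PR and 4.05 in DR cells. No drug-resistant library reached the parental range, but the test was not passed over the 4 libraries (log2 fold change -0.72, standard error 0.26, adjusted p = 0.0513). HERC6 ranged from 0.880 to 1.23 in parental and from 1.41 to 1.76 in drug-resistant cells (adjusted p = 0.118).

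RSAD2, or viperin, makes an antiviral nucleotide that terminates viral RNA. It had 0 reads in each parental library and 27 in CR, 159 and 121 in PR and 30 in DR cells. Against a floor of 3 counts per parental library, its counts scaled to library size were at least 28.6-fold higher in drug-resistant cells (adjusted p = 0.00233), although its FPKM reached only 0.550. CMPK2, which overlaps RSAD2 and supplies its substrate, was at 0.0866, 0.0971 and 0.0563 in parental, 0.117 in CR, 0.274 and 0.372 in PR and 0.110 in DR cells. The 2 PR libraries were the highest for both genes, and CMPK2 did not pass the test over all 4 libraries (adjusted p = 0.0741).

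ISG20, a nuclease that degrades single-stranded RNA, fell. It was at 12.5, 17.5 and 17.7 in parental, 8.58 in CR, 6.94 and 10.2 in PR and 9.90 in DR cells (log2 fold change -0.94, standard error 0.21, adjusted p = 0.00655). LGALS3BP was already among the most abundant of the 40 genes and rose further, from 161, 150 and 187 in parental to 428 in CR, 321 and 346 in PR and 451 in DR cells. Its log2 fold change was 1.11 (standard error 0.24, adjusted p = 0.00590).

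Of the 7 genes that fell, 2 are IFI44L and its neighbour IFI44, whose products are cytoplasmic proteins linked to the restriction of viruses. IFI44L was at 5.86, 4.17 and 2.82 in parental, 0.936 in CR, 1.43 and 0.989 in PR and 1.57 in DR cells (log2 fold change -1.91, standard error 0.28, adjusted p = 0.000887). IFI44 was at 11.8, 20.8 and 11.8 in parental, 7.05 in CR, 8.74 and 7.32 in PR and 8.01 in DR cells (log2 fold change -0.85, standard error 0.20, adjusted p = 0.0101). Every drug-resistant library was below every parental one for both. EPSTI1, a gene named for epithelial-stromal interaction, was at 1.36, 1.97 and 1.31 in parental, 1.05 in CR, 0.813 and 0.736 in PR and 0.949 in DR cells (log2 fold change -0.90, standard error 0.27, adjusted p = 0.0274).

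The IFITM genes encode small membrane proteins that keep viruses from fusing with the cell. IFITM3 was at 190, 222 and 302 in parental, 149 in CR, 121 and 161 in PR and 165 in DR cells, without overlap (log2 fold change -0.80, standard error 0.23, adjusted p = 0.0217). IFITM2 was at 10.3, 27.2 and 43.9 in parental, 15.9 in CR, 10.3 and 12.2 in PR and 14.4 in DR cells. Its groups overlapped because parental replicate 1 was as low as the PR libraries, and its call (log2 fold change -1.16, standard error 0.41, adjusted p = 0.0490) was lost in 12 of 16 alternative settings. IFITM1 was at 1.23, 2.69 and 4.34 in parental, 1.24 in CR, 1.43 and 1.42 in PR and 1.30 in DR cells (adjusted p = 0.0515). EPSTI1 and IFITM3 were also sensitive, with their calls lost in 8 and in 4 of the 16 settings.

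The other genes of the group did not pass the test in drug-resistant cells. IFI6, which limits the replication of flaviviruses, was at 20.4, 23.5 and 17.4 in parental, 36.8 in CR, 22.6 and 32.4 in PR and 35.4 in DR cells (adjusted p = 0.0798). The RNA helicases IFIH1 and DDX60 lay between 0.270 and 1.02 in parental and between 0.557 and 1.71 in drug-resistant cells. SAMD9 was at 1.02, 1.19 and 1.06 in parental, 0.811 in CR, 3.14 and 1.72 in PR and 0.902 in DR cells, so that the PR libraries alone lay above the parental range. The PARP9, PARP14 and DTX3L genes, whose proteins work together on ADP-ribosylation, had log2 fold changes between 0.06 and 0.11. MX1 and MX2, dynamin-like GTPases that trap viral capsids, stayed under an FPKM of 0.30 in all 7 libraries. IFI27 was at 0.490, 0.854 and 0.458 in parental, 0.287 in CR, 0.750 and 0.838 in PR and 0.246 in DR cells. IFI35 ranged from 11.4 to 14.5 in parental and from 6.65 to 13.4 in drug-resistant cells, and SAMD9L from 0.920 to 0.976 and from 1.10 to 1.80.

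**Figure D3:**
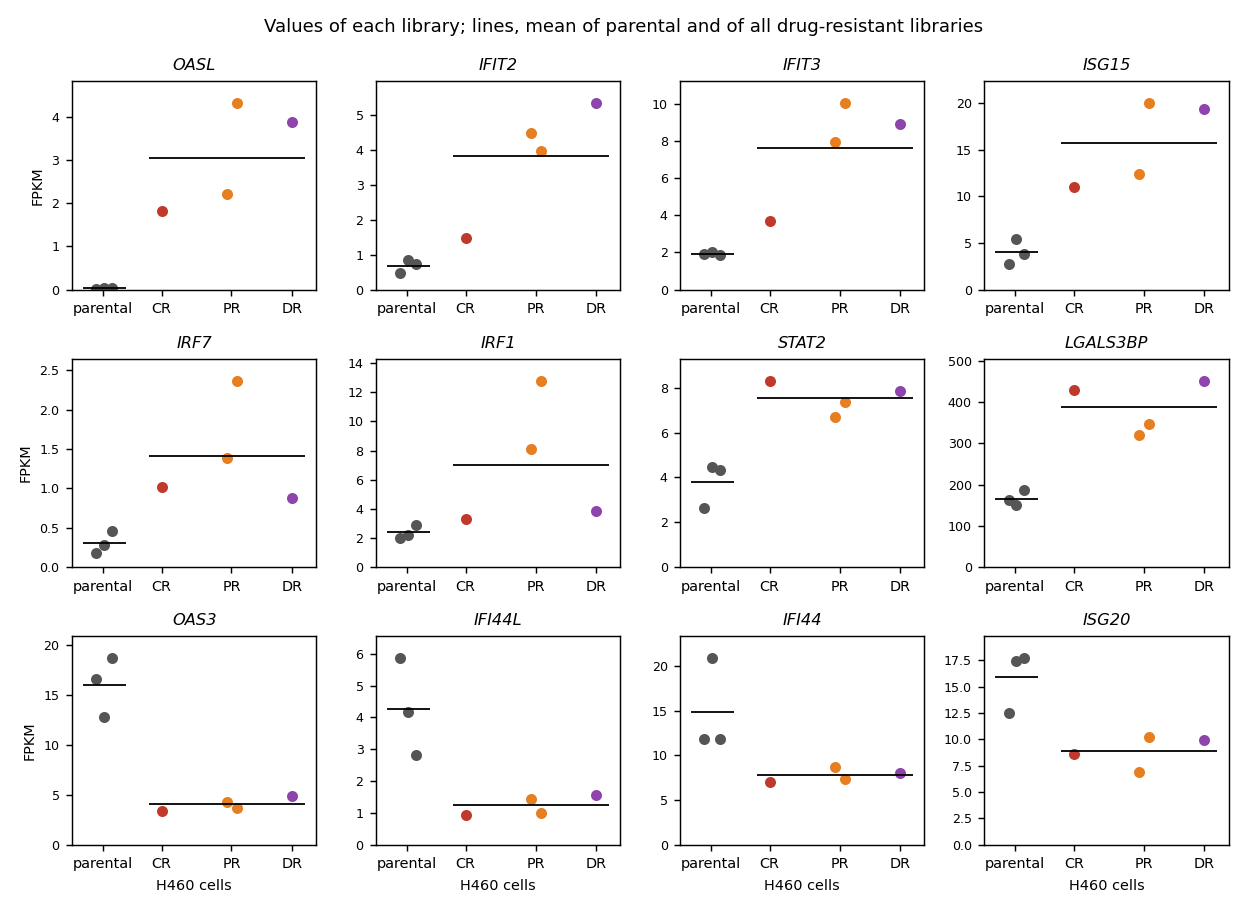
FPKM of 12 genes in each of the 7 H460 libraries of the drug comparison (points), with each panel on its own axis from 0; the left line is the mean of the 3 parental libraries and the right line the mean of the 4 drug-resistant ones. In the upper 8 panels the drug-resistant libraries lie above the parental ones, in the lower 4 (OAS3, IFI44L, IFI44 and ISG20) they lie below, and IRF1 is highest in PR cells.

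The ISRE core was found among genes of both directions. Of the 11 genes that rose, 8 had a promoter window and 4 of those held the core (ISG15, IFIT3, HERC5 and LGALS3BP). Of the 7 that fell, 6 had a window and all 6 held it, among them both IFI44L repeats shown above. Of the 22 that were not called, 19 had a window and 10 held it. STAT2, IRF9, IRF1 and RSAD2, which rose, had no match in their windows.

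PR cells, the drug with replicates, were compared with parental cells alone. Of the 38 genes tested, 17 passed, 11 higher and 6 lower, against 28.1% of 19430 genes (17.5% higher and 10.6% lower). Their median log2 fold change was 0.41, and it was 0.05 over all genes. Of these 17, 15 were also called over all 4 drug-resistant libraries, which include the same PR libraries. The 2 others were CMPK2, which rose (log2 fold change 1.75, standard error 0.46, adjusted p = 0.0222), and USP18, which fell (log2 fold change -1.21, standard error 0.27, adjusted p = 0.0112). RSAD2 was at least 49.3-fold higher in scaled counts. For IRF1 the log2 fold change was 1.96 (standard error 0.26, adjusted p = 0.00218), and OAS3 fell by 2.25 on the log2 scale (standard error 0.30, adjusted p = 0.00216). The count was 11 without parental replicate 2, 9 without PR replicate 1 and 6 without PR replicate 2. In the last 2 the single PR library left was assumed to vary like the parental ones. With the form of the library name as a covariate it was 12, without CMPK2, HERC5, IFITM3, IRF9 and LGALS3BP (adjusted p = 0.0593 for CMPK2). With upper-quartile scaling 13 were higher and 3 lower, and among all genes called the share of higher ones went from 62.2% to 75.9%, with the median of all genes at 0.30.

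CR and DR cells had 1 library each and their differences carry no test. A difference was counted when log2(FPKM + 1) was more than 2-fold from the parental mean, among genes whose FPKM reached 1 in the library or in a control. Adding 1 makes the change of low genes look smaller. In CR cells OASL, ISG15 and LGALS3BP were more than 2-fold higher and OAS3 and IFI44L more than 2-fold lower, 3 and 2 of 30 such genes, against 5.84% higher and 7.05% lower of all genes. Among these, ISG15 and IFI44L were not more than 2-fold from every single parental library. In DR cells IFIT1, IFIT2, IFIT3, OASL, ISG15 and LGALS3BP were higher and OAS3 was lower, 6 and 1 of 32, against 5.76% and 5.68% of all genes. The 3 IFIT genes were at 1.37, 1.92 and 1.75 above control on this scale in DR cells, and at 0.30, 0.56 and 0.68 in CR cells. The edgeR test of CR and DR together against parental cells, without PR, called 11 of the 38 genes, 8 higher and 3 lower. Of these, 10 were among the 18. IRF1, IRF7, IRF9, HERC5, IFI44, EPSTI1, IFITM2 and IFITM3 were not called there.

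PR cells were then set against CR and DR cells as 1 group, paclitaxel being a drug that binds microtubules and the other 2 being drugs that damage DNA. None of the 38 genes passed (edgeR), and neither did any of the 19770 genes tested (0%). At an unadjusted p under 0.05 there were 9 of the 38 and 2479 of all genes. DESeq2 called 4 of the 38, namely IRF1, OAS1, RSAD2 and SAMD9, and edgeR without the filter on low counts called the same 4, while limma on log2(FPKM + 1) called IRF1 alone. The log2 fold changes of PR against CR and DR were 1.32 for IRF1 (standard error 0.26, adjusted p = 0.139), 2.43 for RSAD2 (standard error 0.49, adjusted p = 0.159), 1.33 for SAMD9 (standard error 0.31, adjusted p = 0.172) and -1.41 for OAS1 (standard error 0.27, adjusted p = 0.129). OAS1 was at 68.9 and 80.4 in PR against 165 and 188 in CR and DR cells, and RSAD2 had 159 and 121 reads against 27 and 30. For OASL the estimate was 0.00 (standard error 0.45), and for ISG15 -0.10 (standard error 0.38).

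The genes around the pathway were taken from separate lists. Of all genes tested 18.5% were higher and 15.3% lower in drug-resistant cells, which is the background for each count. Of 22 interferon genes only IFNE had enough reads to be tested, and it was not called. IFNE had between 14 and 86 reads per library, and no other interferon gene had more than 6 reads in any library. In parental cells all the others were at 0 reads. IFNA2 had 3 and 6 reads in the PR libraries, and IFNA8 had 3 in the DR library. Of the 6 receptor genes 1 rose in drug-resistant cells, IFNGR1, the ligand-binding chain of the interferon-gamma receptor (log2 fold change 0.90, standard error 0.28, edgeR adjusted p = 0.0320). Its FPKM was 11.4, 13.5 and 7.93 in parental, 13.4 in CR, 30.5 and 30.2 in PR and 16.1 in DR cells. The CR value lay within the parental range. Of the kinase and STAT genes, STAT3, STAT5A and JAK1 rose and none fell. JAK1 was at 28.1, 27.1 and 26.5 in parental, 48.7 in CR, 52.6 and 47.1 in PR and 53.5 in DR cells, with every drug-resistant library above every parental one. For JAK1 the log2 fold change was 0.78 (standard error 0.18, adjusted p = 0.00764).

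Of 11 negative regulators 2 fell. PTPN2, a phosphatase that acts on JAK1, was at 12.0, 11.5 and 8.43 in parental, 4.86 in CR, 6.59 and 6.77 in PR and 5.93 in DR cells (adjusted p = 0.00208). The other was PTPN11 (log2 fold change -0.66, adjusted p = 0.0328). Of 21 nucleic acid sensors and adaptors tested, 5 fell and none rose. The largest was RNASEH2A, the catalytic subunit of the RNase H2 that removes RNA from DNA, at 38.6, 53.9 and 37.2 in parental, 7.85 in CR, 9.64 and 6.42 in PR and 7.25 in DR cells (log2 fold change -2.57, standard error 0.20, adjusted p = 9.42e-05). SAMHD1, which breaks down deoxynucleotides, fell by 1.18 on the log2 scale (adjusted p = 0.00390), and TLR3, IFI16 and RNASEH2B by 0.76, 0.69 and 0.65. Of 12 interferon-gamma targets tested, 3 rose (IDO1, GBP4 and GBP2). IDO1 had 0 reads in every parental library and between 25 and 38 in the drug-resistant ones, and GBP4 had 0 and between 16 and 42. Among the other interferon-induced genes those that rose included TRIM22 (log2 fold change 3.32, adjusted p = 9.42e-05) and TMEM140 (3.16, adjusted p = 0.00216), and 4 fell, PLSCR1, TRIM14, PNPT1 and LY6E.

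TS cells were compared with 2D cells in both lines, with the line as a covariate. None of the 38 genes tested passed (edgeR), where 0.191% of 18372 genes did (0.147% higher and 0.0435% lower), and 7 of the 38 had an unadjusted p under 0.05. DESeq2 and limma also called none of them. The estimate was above 0 in 35 of the 38, with a median log2 fold change of 1.09 against -0.01 over all genes, but the 2 lines differed widely and the standard errors were large, as for MX1 (2.55, standard error 1.29) and IFI6 (1.60, standard error 1.56). Since each line had 1 TS library, the lines are described apart and without a test.

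In H460 cells the TS library differed little from the parental ones, both in these genes and over all genes. None of 28 genes was more than 2-fold apart from the parental mean, where 1.93% of all genes were higher and 1.97% lower, and the median difference was -0.07 on the log2(FPKM + 1) scale. The largest were those of IFI6, at 10.8 against 20.4, 23.5 and 17.4 in parental cells, and EPSTI1, at 0.414 against 1.36, 1.97 and 1.31, both lower than each parental library. OASL had no read in H460 TS cells and OAS3 was at 16.2, within its parental range, so the pattern of the drug-resistant cells in these 2 genes was not seen there. STAT2 was at 3.27, IRF1 at 2.52, IRF7 at 0.381, IFIT2 at 0.579 and ISG15 at 3.78, all within their parental ranges. IRF9 at 1.65, IFIT3 at 1.75, IFI44 at 8.81 and SAMD9 at 0.670 lay below every parental library, and LGALS3BP at 215 and IFITM3 at 329 lay above. Further genes lay outside on either side, such as IFI35 at 16.4, PARP9 at 2.83, DTX3L at 3.08 and IFIH1 at 1.01 above. HERC6 at 0.823 and IFI27 at 0.262 were examples below. The difference from the parental mean was above 0 in 16 and below 0 in 22 of the 40 genes. OAS1 was at 82.0, OAS2 at 0.428, IFIT1 at 0.363, IFI44L at 3.05, IFITM1 at 2.41 and IFITM2 at 18.9, again inside what parental cells spanned. ISG20 at 17.70 lay just above its highest parental value of 17.68.

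In A549 cells the TS library had more RNA of most of the group. Of 35 genes whose FPKM reached 1 in either library, 24 were more than 2-fold higher and none was lower, against 6.7% higher and 3.02% lower of all genes. An FPKM of 1 was reached by 20 genes of the group in the 2D library and by 34 in the TS library. Some of the 24 therefore entered the count only through the library in which they were higher. The same limit was used for all genes. Over the 35 genes the median difference was 1.61 on the log2(FPKM + 1) scale, against -0.07 over all genes that reached an FPKM of 1. The difference was above 0 in 39 of the 40 genes. HERC5 was the exception, at 1.94 in 2D and 0.715 in TS cells. IFI6 went from 3.38 to 81.7, IFITM1 from 0.846 to 28.9, IFI27, a mitochondrial protein much used as a sign of interferon exposure, from 0.375 to 19.1, ISG15 from 3.55 to 31.0 and IFIT1 from 0.307 to 6.14. MX1 went from 0.106 to 4.82 and BST2, or tetherin, which holds budding virus at the membrane, from 0.0718 to 4.02. These last 2 stayed under 0.30 in every H460 library, the drug-resistant ones included.

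Within A549 the families again were not uniform. Among the OAS genes OAS1 went from 15.8 to 48.2, OAS2 from 0.0313 to 1.60 and OASL from 0.292 to 3.03, while OAS3 was at 17.7 and 21.7. All 4 membrane restriction factors were more than 2-fold higher, with IFITM2 at 31.3 and 145 and IFITM3 at 16.3 and 72.5. Of the transcription factors IRF7 went from 1.23 to 7.75, IRF9 from 3.90 to 16.7 and STAT2 from 3.87 to 9.31, and IRF1 was at 4.85 and 5.48. IFIT2 was at 0.408 and 3.55, IFIT3 at 0.851 and 6.02, SAMD9 at 0.589 and 2.30 and CMPK2 at 0.0815 and 1.17. Among genes under 2-fold, USP18 was at 3.35 and 5.32 and ISG20 at 3.51 and 6.32. RSAD2 had 0 reads in 2D and 91 in TS cells, at least 28.0-fold higher in scaled counts. PARP9 was at 2.03 and 12.7 and DTX3L, which overlaps it, at 2.48 and 8.44. XAF1, a pro-apoptotic gene, had 5 and 163 reads, and among the H460 libraries only that of DR cells had any, with 5.

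**Figure D4:**
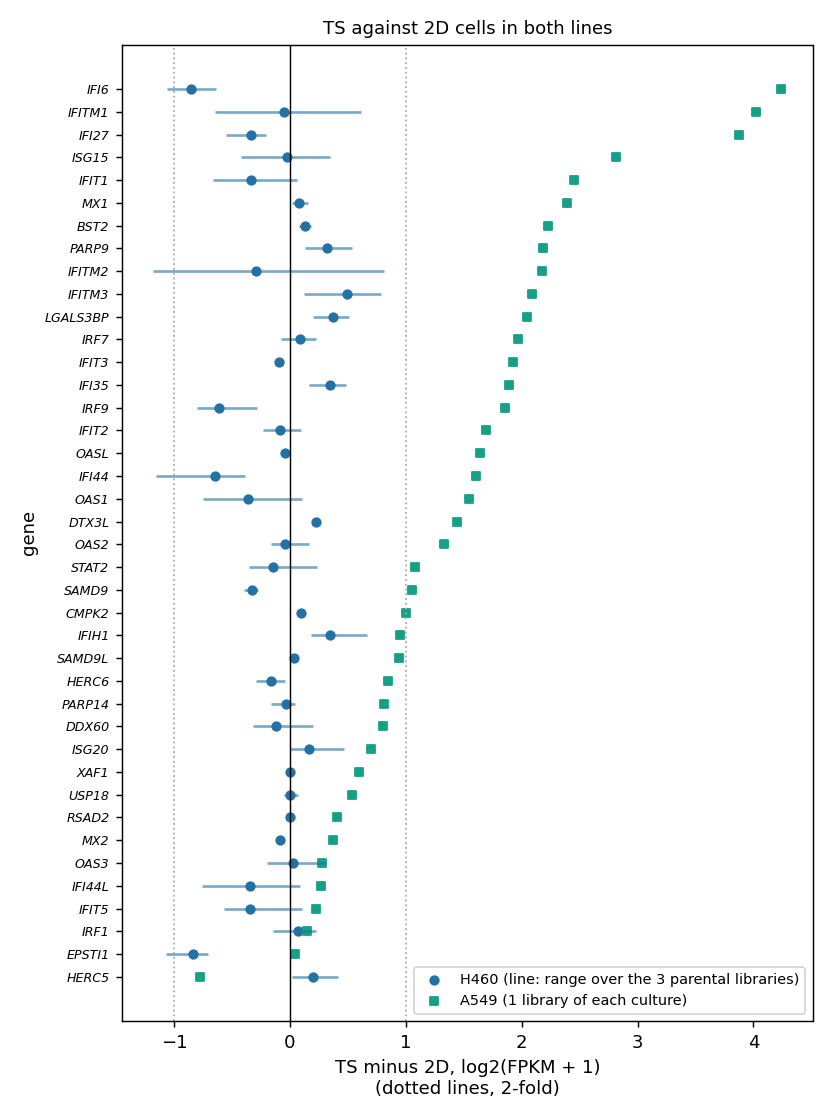
TS minus 2D difference in log2(FPKM + 1) of the 40 genes (rows, ordered by A549), for H460 (circles, against the mean of 3 parental libraries, with the range over single parental libraries as a line) and A549 (squares, 1 library against 1). The A549 squares lie right of 0 for every gene but HERC5, whereas all H460 circles lie between the dotted lines that mark 2-fold.

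The pathway around these genes was higher in A549 TS cells in part. No interferon gene reached an FPKM of 1, and IFNE had 14 reads in 2D and 71 in TS cells while all other interferon genes had 0. IFNGR1 went from 10.3 to 27.5, whereas JAK1 was lower in TS cells, at 22.9 against 64.8. The feedback inhibitor SOCS3 was lower in TS cells of both lines, at 4.12 against 17.2 in A549 and at 22.5 against a parental mean of 49.4 in H460. Of 29 other interferon-induced genes 7 were more than 2-fold higher in A549 TS cells (6.7% of all genes were) and none was lower, among them PLSCR1 (10.8 to 36.3) and LY6E (82.9 to 245), which both had fallen in drug-resistant H460 cells. Of 7 interferon-gamma targets 4 were higher, GBP2, GBP3, APOL1 and ICAM1. KRT8 and KRT18 were also higher in this TS library, at 3866 and 3229 against 1446 and 1341. So were KRT19, at 68.3 against 3.57, CDH1, at 11.9 against 9.29, and CD14, at 10.1 against 2.37. The part of these markers was not tested, and culture and medium cannot be told apart.

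The 2 lines were compared in the same fit, over both cultures. This fit assumes the same TS effect in both lines, which the values of H460 and A549 above do not show. The line term therefore averages unlike 2D and TS libraries of A549 for many of these genes, and their difference adds to the standard error. Of the 38 genes tested 8 passed, 3 higher and 5 lower in A549, where 23.9% of 18372 genes passed (14.4% higher and 9.42% lower). The share of the 38 was close to that of all genes. OASL (log2 fold change 5.24, standard error 1.38, adjusted p = 0.0341), IRF7 (2.96, standard error 0.69, adjusted p = 0.0231) and IRF1 (1.24, standard error 0.26, adjusted p = 0.0162) were higher in A549. IFI44L was at 0.0172 (2D) and 0.226 (TS) in A549, against 2.82 to 5.86 in parental H460 cells (log2 fold change -5.59, standard error 1.03, adjusted p = 0.00998). IFITM3 (-3.16, standard error 0.53, adjusted p = 0.00713) and ISG20 (-1.95, standard error 0.33, adjusted p = 0.00742) were lower in A549 as well.

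EPSTI1 had 0 reads in 2D and 11 in TS cells of A549, against 355 to 467 in parental H460 cells (log2 fold change -5.53, standard error 1.40, adjusted p = 0.0305). LGALS3BP was at 33.3 and 141 in A549 and at 150 to 187 in parental H460 cells (log2 fold change -1.60, standard error 0.47, adjusted p = 0.0481). IFI44, next to IFI44L, was at 0.0381 (2D) and 2.17 (TS) in A549 against 11.8 to 20.8 in parental H460 cells, and did not pass (log2 fold change -4.76, standard error 1.45, adjusted p = 0.0547). Leaving out a parental library reduced the calls to 5 without replicate 1 or 3 and to 3 without replicate 2, when IFI44L, IFITM3 and ISG20 stayed called.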

How the data were processed

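Poly(A) RNA was sequenced in 10 libraries made with a TruSeq mRNA kit, and 3 values per gene and library were deposited. Per the submitters' processing notes the tools included bcl2fastq 1.8.4, Trimmomatic, HISAT2 2.1.0 and StringTie 2.1.3b with the build GRCh38. The read count was deposited by the authors as a whole number per gene without normalization, and how shared reads were counted is not given in the sources used here. The FPKM and TPM values were made by the authors, who scaled the reads to transcript length and to library size, and the TPM values were not used further.

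Counts were compared with edgeR 4.0.16 (TMM, filterByExpr, quasi-likelihood test, R 4.3.3) and Benjamini-Hochberg adjustment over all genes fitted, at a threshold of 0.05. The standard error is the absolute log2 fold change divided by the square root of F. The fits used 4 drug-resistant and 3 parental libraries, 2 PR and 3 parental libraries, PR against CR and DR libraries with the parental ones kept for the spread, and the 6 libraries of TS and 2D cells with culture and line as terms. Groups of 1 library were described on the log2(FPKM + 1) scale with a limit of 2-fold. The fits were also run on simulated counts, drawn independently for each library, with no batch and the same TS effect in both lines. Such counts cannot show how well 1 library stands for a drug or a culture. RefSeq promoters (GRCh38.p14) were searched with Python 3.11.15, and figures were drawn with matplotlib 3.10.9.

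The 40 genes and all lists were chosen with earlier results of these data known. Every member with an adjusted p under 0.05, the 8 with the largest change in each fit and up to 5 more than 2-fold from every control in a single library are given by library, and other members by range. Alternatives were RLE and upper-quartile scaling, no filter, DESeq2 1.42.0, limma 3.58.1 on FPKM, the form of the library name, a replicate block and each library left out. Results of some genes on the lists are not reported here.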

Additional observations from a re-analysis of the deposited data

Results flagged for a closer look

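In 5 genes that reached an FPKM of 1 in a parental library, the TS library of A549 was more than 2-fold higher than its 2D library on the log2(FPKM + 1) scale, while the TS library of H460 was lower than each of the 3 parental libraries. The difference between the lines was not tested, since each line had 1 TS library. On the log2(FPKM + 1) scale, IFI6 was 4.24 in A549 and -0.85 in H460, IFIT3 was 1.92 and -0.091, IRF9 was 1.85 and -0.61, IFI44 was 1.61 and -0.64, and SAMD9 was 1.05 and -0.32. The H460 difference of IFIT3 was small beside that of the others.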

How the results depend on the processing

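No call among these genes reversed under any alternative. Of the 18 calls in drug-resistant cells 9 were kept in every setting that tested them (RSAD2, OASL, IFIT2, IFIT3, ISG15, LGALS3BP, OAS3, IFI44L and ISG20), of the 17 in PR cells 6 were, and of the 8 between the lines 3 were. RSAD2 was not tested by limma, since its FPKM was under the minimum of 1. With CR and DR alone, 11 of the genes and 3355 of all genes were called. In PR cells limma called 3026 (pseudocount 1) and 2773 (0.1) of all genes. PR against CR and DR gave 4 of the genes without the filter and with DESeq2 and 1 with limma (pseudocount 1), and 509, 420 and 101 of all genes, and 15 with limma at 0.1. For TS, DESeq2 called 537 and limma at 0.1 called 19 of all genes. Leaving out 1 library gave 14 to 21 of the genes in drug-resistant cells (4215 to 6585 of all genes), 6 to 20 in PR cells (950 to 6661), 0 to 1 for PR against CR and DR (0 to 66, the 66 without parental replicate 1), 0 for TS (6 to 35) and 3 to 5 between the lines (2644 to 3905). In single libraries, a pseudocount of 0.1 gave 9 genes more than 2-fold apart in CR, 13 in DR and 1 in H460 TS cells. Parental replicate 1 alone as control gave 8 in CR cells, replicate 2 alone gave 3 in H460 TS cells, and replicate 3 alone gave 8 in CR and 1 in H460 TS cells. The causes were not tested. Replicates 1 and 2 of PR and parental cells share only a number (correlation of their differences 0.156 over 12755 genes), and with this replicate block 18 of the genes and 6775 of all genes were called, among which CMPK2 was lost. Fewer genes had 1 read than 2, so a count may not be 1 independent read. CR, DR and both TS groups rest on 1 library each, and genes with few reads, such as RSAD2, MX2 and XAF1, have the least precise values.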
